A study of Mus musculus with 40 samples.

Results

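Osteoclasts are the bone-resorbing cells of the callus, and 9 genes known for their work in this cell were followed through rib repair: Acp5, Ctsk, Calcr, Ocstamp, Dcstamp, Atp6v0d2, Nfatc1, Oscar and Itgb3. They were taken by gene symbol, in a choice made with earlier results of these data known, and all 9 were found among the 21204 genes of the count table that the authors had filtered for low expression. Rib tissue of wild-type mice was sequenced in bulk after removal of a rib segment from skeletally immature (7 weeks) and mature (over 10 months) animals, which the study's methods describe as female C57BL/6 mice. Each age was sampled at baseline, which the study's methods place before resection, and then on day 0, 2, 5 and 14 (written 0dpr, 2dpr, 5dpr and 14dpr for days post-resection), which gives 10 groups. The labels instead describe the baseline tissue as collected following the surgery, so what baseline stands for differs between these sources, and every comparison with baseline rests on it. Each group had 4 libraries except the mature 5dpr group, with 3, because the counts used here hold no column for its replicate 2. No group carried a transgene or a drug, and the 0dpr tissue was taken on the day of surgery.

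The tissue was a composite of bone, marrow and the muscle between the ribs, so each value is an average over many cell types. In such samples fewer cells of a type and less RNA per cell cannot be told apart. Levels are given as CPM, counts scaled to the library total and by TMM factors, and a gene is called when its Benjamini-Hochberg adjusted p in edgeR's quasi-likelihood test over all 21204 genes and 39 libraries is under 0.05. The study's methods speak of individual biological samples in general, but the labels tie no library to an animal, so the p-values measure the spread between libraries, which may be technical in part. The libraries held 6057756 to 21537070 counts each (median 9087417), and no pair within a group agreed within sampling noise. The labels place the libraries on separate sequencing runs without saying which, so a run effect could not be examined. Immature 0dpr replicate 3 stood apart: it was the lowest of its group for all 9 genes, held 1807 CPM of summed osteoblast markers against 8492 to 11910 in the other libraries of that group, and the most muscle (119900 CPM), and results that rest on it are given without it too.

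Osteoclasts form by fusion of precursors of the monocyte and macrophage lineage. The growth factor CSF1 and the ligand RANKL (Tnfsf11) act on those precursors through the receptors Csf1r and RANK (Tnfrsf11a), while the decoy receptor osteoprotegerin (Tnfrsf11b) binds RANKL. Costimulatory receptors such as OSCAR signal through adaptors with activation motifs, and together these inputs raise NFATC1, a transcription factor central to the osteoclast programme, which acts with AP-1, PU.1 and MITF. DC-STAMP and OC-STAMP are membrane proteins needed for cell fusion. The mature cell attaches to bone through the integrin that holds the beta-3 chain (Itgb3), secretes acid by a proton pump of which Atp6v0d2 encodes a subunit, and degrades matrix with cathepsin K (Ctsk) and the tartrate-resistant acid phosphatase (Acp5). The calcitonin receptor (Calcr) transmits the hormone signal that restrains resorption. Resorption accompanies bone formation in a callus and remodels the first mineralised tissue. Several of these genes are also used elsewhere: Itgb3 by megakaryocytes and platelets, Calcr by muscle satellite cells and neurons, and Nfatc1 by lymphocytes and endothelial cells of heart valves.

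On the GRCm38 build, Acp5 (ENSMUSG00000001348) lies at chr9:22126727-22135711 on the minus strand, Ctsk (ENSMUSG00000028111) at chr3:95499256-95509362 on the plus strand and Oscar (ENSMUSG00000054594) at chr7:3609813-3616157 on the minus strand. Calcr (ENSMUSG00000023964) lies at chr6:3685680-3764714, Ocstamp (ENSMUSG00000027670) at chr2:165393760-165400405 and Atp6v0d2 (ENSMUSG00000028238) at chr4:19876841-19922605, each on the minus strand. Dcstamp (ENSMUSG00000022303) lies at chr15:39745930-39760938 and Itgb3 (ENSMUSG00000020689) at chr11:104608000-104670476, both on the plus strand. Each locus spans its exons and introns, and the exons merge to between 1512 bases in Ctsk and 7469 bases in Nfatc1. Acp5 overlaps the gene 6530413G14Rik and Nfatc1 overlaps AC123818.1, each on the opposite strand. The library kit marks strand, but the strand setting of the counting is not given in the sources used here, so reads of those partners may be shared.

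Acp5, Ctsk and Oscar rose from 5dpr to 14dpr at both ages, and the 250 bases upstream of a RefSeq start are shown for each, on the gene's own strand (RefSeq, GRCm38.p6). The windows are chr9:22130599-22130848 for Acp5, chr3:95498960-95499209 for Ctsk and chr7:3616158-3616407 for Oscar. Capitals mark, on either strand, the letters GGAAA (the core bound by NFAT factors), GAGGAA (a PU.1 core) and TCATGTG (an M-box, bound by MITF). The AP-1 letters TGANTCA were searched too.
Acp5: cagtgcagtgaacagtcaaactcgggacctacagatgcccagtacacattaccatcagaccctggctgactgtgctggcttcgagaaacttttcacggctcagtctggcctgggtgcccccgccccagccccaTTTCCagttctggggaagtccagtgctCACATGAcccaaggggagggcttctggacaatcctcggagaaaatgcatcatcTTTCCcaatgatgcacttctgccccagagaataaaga
Ctsk: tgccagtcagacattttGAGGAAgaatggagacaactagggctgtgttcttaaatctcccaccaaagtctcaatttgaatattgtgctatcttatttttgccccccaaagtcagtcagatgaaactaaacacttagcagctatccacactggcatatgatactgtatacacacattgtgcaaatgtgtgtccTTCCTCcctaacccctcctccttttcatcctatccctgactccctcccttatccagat
Oscar: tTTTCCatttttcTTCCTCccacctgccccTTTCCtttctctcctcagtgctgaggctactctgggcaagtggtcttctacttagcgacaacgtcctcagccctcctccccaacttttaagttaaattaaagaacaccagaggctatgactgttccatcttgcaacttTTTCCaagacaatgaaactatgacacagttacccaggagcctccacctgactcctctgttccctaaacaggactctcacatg
The Oscar window holds 3 NFAT cores and 1 PU.1 core, the Ctsk window 2 PU.1 cores and no NFAT core, and the Acp5 window 2 NFAT cores and 1 M-box. For Acp5, 3 start sites are listed, and the one shown is the only one of them with an M-box upstream. Over all 32851 windows of the same length the NFAT core occurs in 55.6%, the PU.1 core in 23.3%, the AP-1 letters in 6.75% and the M-box in 3.25%. The PU.1 and NFAT letters can share bases. No AP-1 match lies in any of the 7 windows examined for 4 members (Acp5, Ctsk, Calcr and Oscar). This says only that these letters are not in those windows, and no window of the other members was examined. The NFAT and PU.1 letters are common in all promoters, and the matches are a description.

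Per length of transcript, Ctsk was the most abundant of the 9 in every group and Acp5 the second. On the scale of CPM per kb of merged exon, Ctsk stood at 397 ± 66.2 (SD, n = 4) in immature baseline tissue and 307 ± 52.2 in mature baseline tissue. Acp5 stood at 261 ± 36.2 and 264 ± 48.8. Below these enzymes of matrix breakdown came Itgb3 at 32.2 ± 3.60 and 50.7 ± 9.84, Atp6v0d2 at 19.2 ± 3.52 and 21.2 ± 5.08 and Nfatc1 at 8.39 ± 0.970 and 8.69 ± 1.44. Oscar, Dcstamp, Ocstamp and Calcr were below 5 CPM per kb at baseline in both ages. From 2dpr onward Atp6v0d2 ranked above Itgb3 in both ages, the reverse of the order at baseline and 0dpr. At 14dpr in immature mice Dcstamp (11.4 ± 2.93 CPM per kb) and Oscar (9.74 ± 4.96) also stood above Nfatc1 (8.98 ± 0.871), though the SDs of these 3 overlap.

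**Figure D1:**
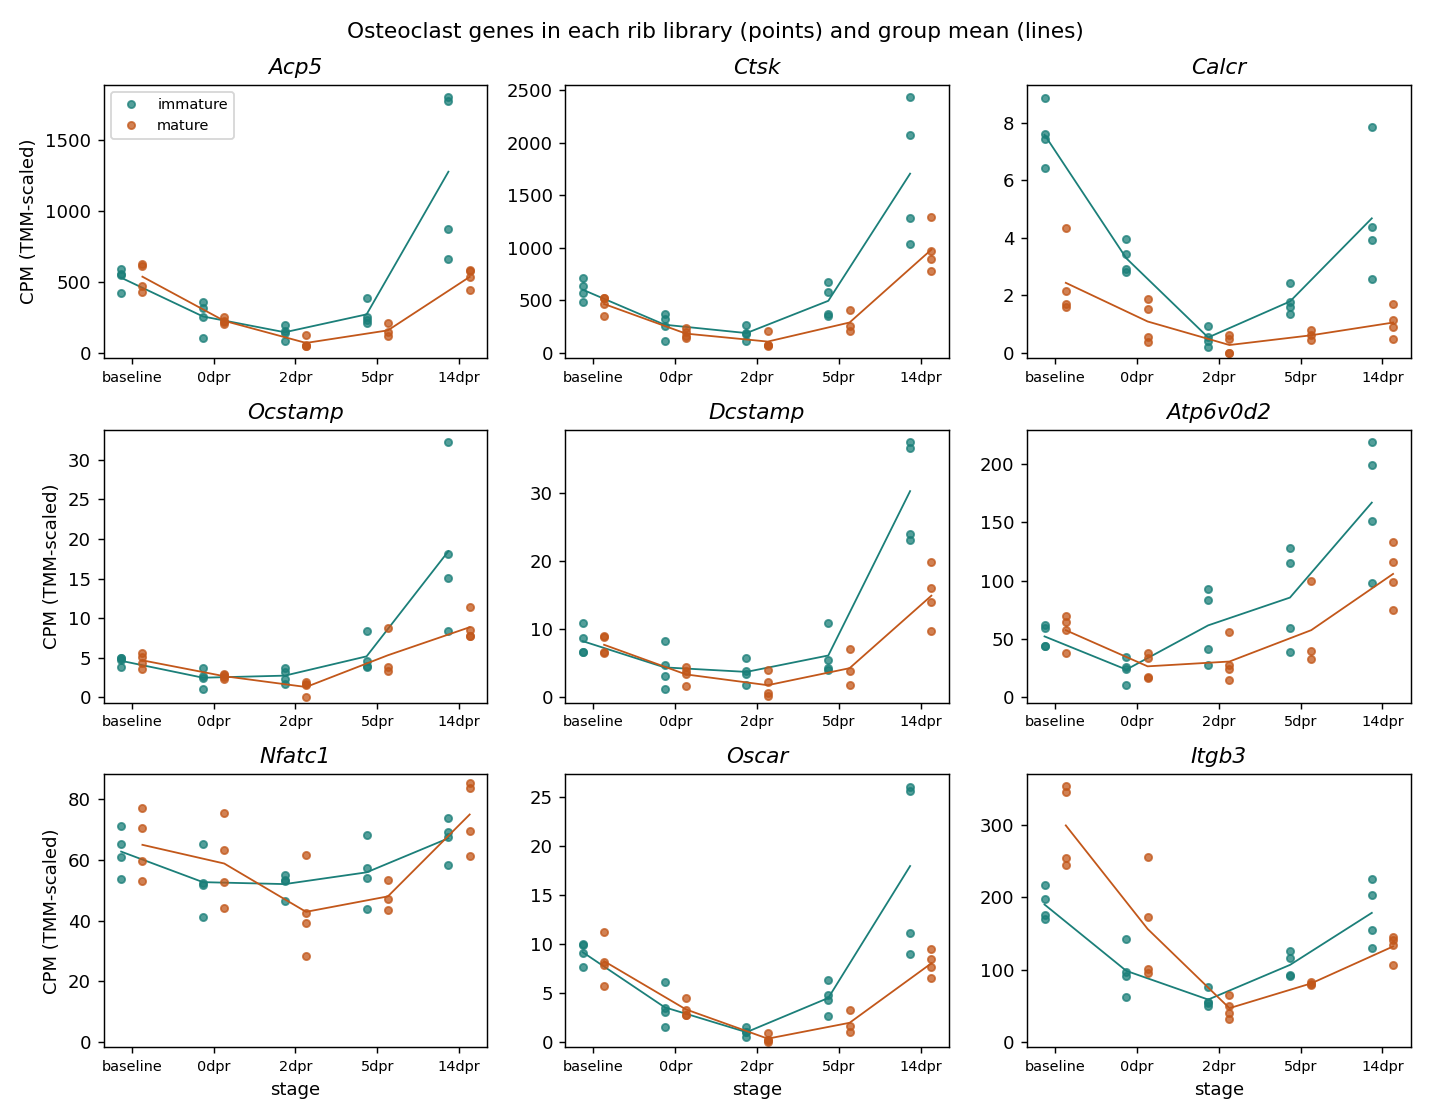
CPM of each osteoclast gene in all 39 libraries (points) by stage and age, with lines through the group means; each panel has its own linear axis from 0. Most genes fall to a low at 2dpr and are highest at baseline or 14dpr, with Acp5 reaching 1803 CPM in an immature 14dpr library, while Nfatc1 stays between 28.3 and 85.2 CPM.

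Across the stages, 7 of the 9 genes in immature and 8 of 9 in mature mice had their lowest mean at 2dpr, and the calls in each step were as follows. From baseline to 0dpr, 4 of 9 genes fell in immature mice and none rose, where 10.6% of all genes were called in either direction and 4.66% fell. Without immature 0dpr replicate 3 these 4 calls became 0. In mature mice 4 of 9 fell and none rose, where 22.5% of all genes were called and 10.6% fell. These were Acp5, Ctsk, Oscar and Itgb3 at both ages, and the call of Oscar in mature mice was lost without baseline replicate 3 (-1.12, adjusted p = 0.0804) or 0dpr replicate 1 (-1.27, adjusted p = 0.0632). From 0dpr to 2dpr, 4 of 9 fell (Acp5, Calcr, Oscar and Itgb3) and 1 rose (Atp6v0d2) in immature mice, where 44% of all genes were called, 22.2% falling and 21.8% rising. In mature mice 5 of 9 fell (these 4 with Nfatc1), where 47.6% of all genes were called and 24.9% fell. In either direction the members' share in that step, 5 of 9 at each age, was near the share of all genes, while 44.4% and 55.6% of the members fell.

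From 2dpr to 5dpr, 3 of 9 genes rose in immature mice (Ctsk, Oscar and Itgb3), where 8.05% of all genes were called and 4.37% rose. In mature mice 5 of 9 rose (these 3 with Acp5 and Ocstamp), where 14.5% of all genes were called and 8.16% rose. From 5dpr to 14dpr, 5 of 9 rose in immature mice (Acp5, Ctsk, Ocstamp, Dcstamp and Oscar) and 4 of 9 in mature mice (Acp5, Ctsk, Nfatc1 and Oscar). In that last step 3.18% of all genes were called and 1.73% rose in immature mice, and 4.18% were called and 1.95% rose in mature mice. None of the 9 fell in either of these steps. The median log2 fold change of the 9 from 5dpr to 14dpr was 1.79 in immature and 0.88 in mature mice, beside -0.02 over all genes in both.

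At 14dpr the 9 genes differed in whether they had returned to baseline or passed it. In immature mice 5 of 9 were higher at 14dpr than at baseline (Acp5, Ctsk, Ocstamp, Dcstamp and Atp6v0d2), where 31.4% of all genes were called and 16.4% rose. In mature mice Ctsk alone was higher and Itgb3 alone lower, where 33.5% of all genes were called, 17.1% rising and 16.4% falling. Successive steps share libraries (2dpr ends one step and begins the next), so a high or low 2dpr group moves both neighbours. Over the interval from baseline to 14dpr, 12 of 12 muscle markers fell in immature and 11 of 12 in mature mice. With the mean muscle level of each library as a covariate the 5 calls in immature mice became 0, where calls over all genes went from 6667 to 1956, and the rise of Ctsk in mature mice was lost (log2 fold change 0.47, adjusted p = 0.459). The muscle level itself differs between the stages. Calls from baseline to 0dpr also became 0 at both ages with that covariate, where those over all genes went from 2257 to 1102 in immature and from 4775 to 373 in mature mice, while the 5 calls from 5dpr to 14dpr in immature mice remained 5 (674 and 592 over all genes).

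**Figure D2:**
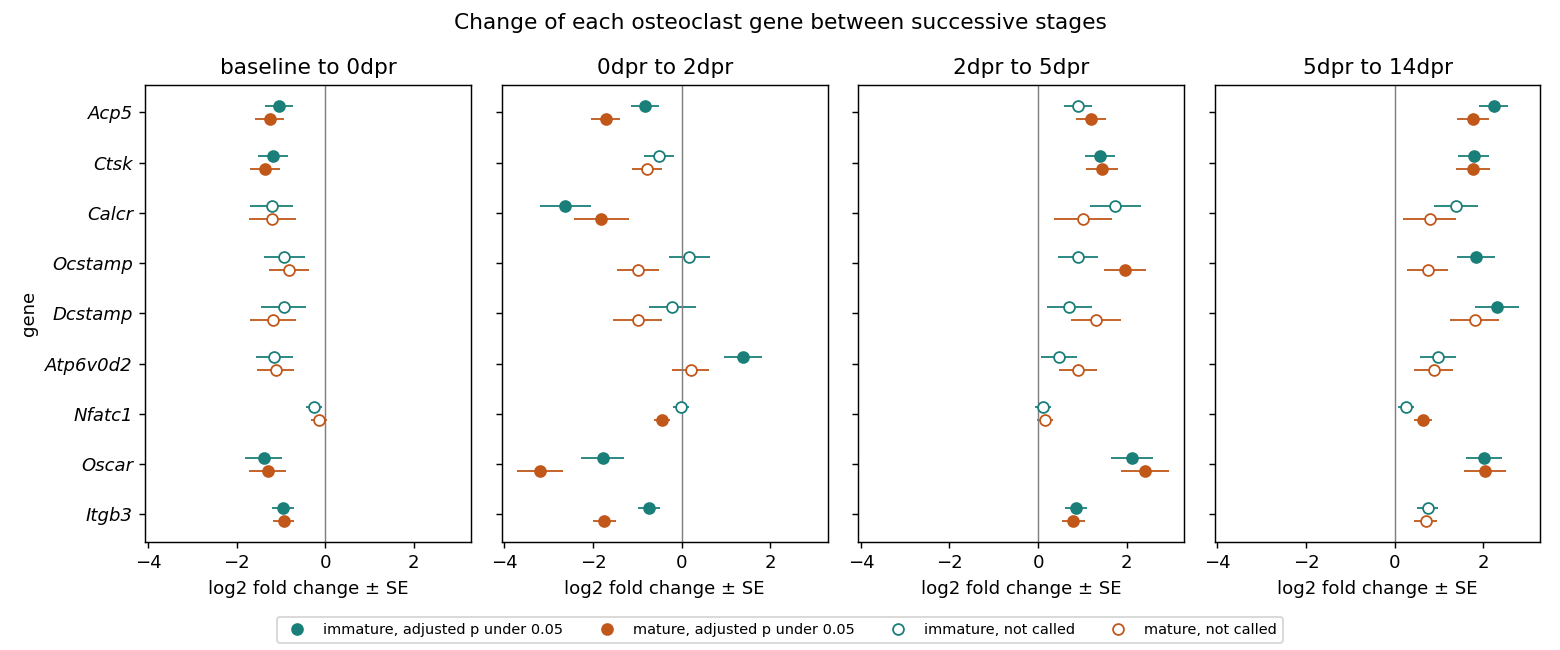
Log2 fold change with its standard error (edgeR) for each of the 9 genes in each step between successive stages; filled points passed an adjusted p of 0.05. The first 2 panels lie mostly left of 0 and the last 2 right of it, with Oscar reaching -3.20 from 0dpr to 2dpr in mature mice while Atp6v0d2 at both ages (1.38 and 0.21) and Ocstamp in immature mice (0.17) lie right of 0 in that step.

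Acp5, whose enzyme is the histological stain for osteoclasts, ranged from 49.6 to 1803 CPM. In immature mice it stood at 550, 589, 557 and 422 CPM at baseline, 356, 317, 102 and 249 at 0dpr, and 155, 85.5, 141 and 196 at 2dpr. It then stood at 232, 387, 209 and 255 CPM at 5dpr and 658, 1777, 875 and 1803 at 14dpr. All 14dpr libraries were above those of the other stages, although the 4 libraries of that stage spread widely, while the 0dpr, 2dpr and 5dpr libraries overlapped with their neighbours in the order of levels. The 5dpr to 14dpr rise was 2.24 ± 0.33 on the log2 scale (SE, adjusted p = 4.61e-05, edgeR).

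In mature mice Acp5 stood at 474, 627, 615 and 431 CPM at baseline, 219, 225, 204 and 252 at 0dpr, and 52.0, 49.6, 124 and 50.0 at 2dpr. The 3 libraries of 5dpr held 210, 143 and 121 CPM and those of 14dpr 442, 578, 584 and 538. Here the 14dpr libraries overlapped with baseline instead of passing it (log2 fold change 0.00 ± 0.32, adjusted p = 0.994), and the third 2dpr library stood well above its companions, as it did for Ctsk. From 0dpr to 2dpr Acp5 fell by 1.71 ± 0.33 on the log2 scale at the mature age (adjusted p = 4.39e-05) and by 0.83 ± 0.32 at the immature age (adjusted p = 0.0345). The immature call was lost without any 1 of 5 libraries, for instance without 0dpr replicate 1 (adjusted p = 0.152).

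Ctsk, the collagen-degrading protease, followed Acp5 closely across the libraries. In immature mice it stood at 480, 634, 716 and 570 CPM at baseline, 372, 322, 114 and 259 at 0dpr, and 180, 111, 190 and 266 at 2dpr. By 5dpr it had reached 581, 678, 353 and 364 CPM, which overlaps with baseline, and at 14dpr 1033, 2433, 1288 and 2072, above every other library of that age. The gains were 1.40 ± 0.34 on the log2 scale from 2dpr to 5dpr (adjusted p = 0.00685) and 1.79 ± 0.34 from 5dpr to 14dpr (adjusted p = 0.00141).

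The mature libraries held 464, 517, 523 and 352 CPM of Ctsk at baseline, 139, 200, 155 and 233 at 0dpr, and 75.9, 71.7, 210 and 66.6 at 2dpr. They held 402, 255 and 206 CPM at 5dpr and 783, 891, 964 and 1291 at 14dpr. The 14dpr libraries lay above all others of that age, so Ctsk exceeded its baseline at both ages where Acp5 did so in immature mice only. Whether the 2 ages differ in the Acp5 change from baseline to 14dpr was tested as an interaction, which did not pass (1.28 ± 0.45, adjusted p = 0.418). The mature change of Ctsk from 0dpr to 2dpr did not pass (-0.78, adjusted p = 0.0564) but did without 2dpr replicate 3 (-1.35, adjusted p = 0.000884) or 0dpr replicate 1 (-0.92, adjusted p = 0.0399). From 2dpr to 5dpr in mature mice, the rises of Acp5 (1.20) and Ctsk (1.44) were lost without 5dpr replicate 1 (adjusted p = 0.111 and 0.0651), and that of Ctsk from 5dpr to 14dpr without 5dpr replicate 4 (1.58, adjusted p = 0.052).

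Acp5 and Ctsk were also the most alike of all pairs of the 9 genes. Pearson's r of their log2 CPM was 0.936 over the 39 libraries and 0.912 after removing each group's mean, which describes libraries that share tissue composition and depth. The same within-group measure was 0.695 for Ocstamp with Oscar, 0.702 for Ctsk with Dcstamp and 0.0578 for Acp5 with Nfatc1. Without immature 0dpr replicate 3 (102 CPM of Acp5 and 114 CPM of Ctsk), none of the 4 falls from baseline to 0dpr in immature mice passed (Acp5 -0.75, adjusted p = 0.175; Ctsk -0.89, 0.146; Oscar -1.09, 0.163; Itgb3 -0.75, 0.0871).

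Oscar, the costimulatory receptor, had the largest fall of the 9 genes from 0dpr to 2dpr in mature mice, and Calcr had it in immature mice. Its immature libraries held 6.12, 3.08, 1.55 and 3.48 CPM at 0dpr, then 0.523, 1.01, 1.00 and 1.51 at 2dpr. The mature libraries held 3.29, 2.74, 4.54 and 2.78 CPM, then 0.909, 0.260, 0 and 0.231. At each age the 2dpr libraries lay below every library of the other stages of that age, and in mature mice they rested on 11, 3, 0 and 5 reads. From 0dpr to 2dpr Oscar fell by 1.78 ± 0.48 on the log2 scale at the immature age (adjusted p = 0.00247) and fell by 3.20 ± 0.52 at the mature age (adjusted p = 4.25e-06), and the difference between these falls did not pass (1.41 ± 0.71, adjusted p = 0.452).

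Oscar then rose in both later steps at both ages. Immature libraries held 6.34, 4.26, 2.66 and 4.77 CPM at 5dpr, then 9.02, 26.1, 11.2 and 25.7 at 14dpr. Mature libraries held 3.28, 1.62 and 1.01 CPM, then 6.51, 7.71, 9.47 and 8.52. No library of 14dpr fell into the range of 5dpr at the same age. The earlier rise measured 2.12 ± 0.47 on the log2 scale in immature libraries (adjusted p = 0.0028) and 2.41 ± 0.55 in mature ones (adjusted p = 0.00226), and the later rise 2.02 ± 0.42 (adjusted p = 0.00295) and 2.05 ± 0.47 (adjusted p = 0.00858). At 14dpr the mature libraries overlapped with their baseline (5.76 to 11.2 CPM), and the last mature rise was lost without 5dpr replicate 3 (1.92, adjusted p = 0.0682) or replicate 4 (1.73, adjusted p = 0.0835).

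Neither fusion gene was called in the steps up to 2dpr at either age. Dcstamp held 6.70 to 10.9 CPM at immature baseline and 1.80 to 5.81 at 2dpr, and no step up to 5dpr passed the test for it at either age. Without mature 2dpr replicate 1, its fall from 0dpr to 2dpr (-1.85, adjusted p = 0.0122) and its rise from 2dpr to 5dpr (2.17, adjusted p = 0.0159) in mature mice did pass. Its 14dpr libraries held 24.0, 37.5, 23.2 and 36.6 CPM at the immature age, and 9.76, 14.0, 16.2 and 19.9 at the mature age. At each age these lay above every library of the other stages. The rise from 5dpr was 2.31 ± 0.50 for immature libraries (adjusted p = 0.0052). For mature libraries it was 1.81 ± 0.55 and did not pass with edgeR (adjusted p = 0.0541), while DESeq2 called it (1.85, adjusted p = 0.014) and edgeR did without 5dpr replicate 1 (2.37, adjusted p = 0.0434).

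Ocstamp, its partner in fusion, was the least abundant per length at baseline beside Calcr. In immature mice it rested on 12 to 84 reads a library before 14dpr, and it rose from 3.81, 8.39, 3.92 and 4.60 CPM at 5dpr to 8.41, 18.1, 15.1 and 32.2 at 14dpr (1.84 ± 0.43, adjusted p = 0.0101). In mature mice its called rise came earlier, from 1.98, 1.73, 0 and 1.53 CPM at 2dpr to 8.72, 3.35 and 3.88 at 5dpr (1.96 ± 0.48, adjusted p = 0.00464). The immature rise was lost without 14dpr replicate 4 (1.43, adjusted p = 0.0966) or 5dpr replicate 2 (1.73, adjusted p = 0.0536), and the mature one without 5dpr replicate 1 (1.41, adjusted p = 0.0762), the library with 8.72 CPM. The interaction of age with either step did not pass for Ocstamp (adjusted p = 0.684 and 1).

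Atp6v0d2, the proton pump subunit that also takes part in fusion, had its lowest mean at 0dpr at both ages, as Ocstamp did in immature mice. In immature mice it went from 34.7, 26.3, 10.3 and 24.1 CPM at 0dpr to 83.8, 28.1, 41.7 and 93.2 at 2dpr, a rise of 1.38 ± 0.42 (adjusted p = 0.00782), with the lowest 2dpr library (28.1) inside the 0dpr range. In mature mice it stood at 17.9, 33.8, 16.4 and 38.3 CPM at 0dpr and 15.2, 56.0, 24.4 and 27.3 at 2dpr, which overlap (0.21 ± 0.42, adjusted p = 0.715). Its mature change from baseline to 0dpr did not pass (-1.11, adjusted p = 0.0523) but did without baseline replicate 4, 0dpr replicate 2 or 0dpr replicate 4 (-1.31, -1.3 and -1.39), and its mature change from 2dpr to 5dpr passed without 2dpr replicate 2 (1.36, adjusted p = 0.0405). The interaction of age with the step from 0dpr to 2dpr did not pass (1.18 ± 0.59, adjusted p = 0.454). Its highest means were at 14dpr, from libraries of 98.3, 219, 151 and 199 CPM at the immature age and 75.1, 116, 99.0 and 133 at the mature age, above every baseline library of the same age (43.7 to 61.9 and 38.3 to 69.8 CPM).

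Nfatc1, the transcription factor, barely changed in level. Its lowest library held 28.3 CPM and its highest 85.2, and all 5 stages overlapped with their neighbours in the order of levels at both ages. In mature mice it fell by 0.45 ± 0.18 from 0dpr to 2dpr (adjusted p = 0.0363) and rose by 0.64 ± 0.19 from 5dpr to 14dpr (adjusted p = 0.0492). Leaving out any 1 of 5 libraries ended the first of these calls and any 1 of 6 the second, with adjusted p up to 0.165 and 0.189. In immature mice no step passed, and no fold change between successive stages exceeded 0.26 in size.

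Calcr, which had the fewest reads, was the gene whose libraries lay apart between the ages at 4 of 5 stages. Its baseline libraries held 7.43, 8.87, 7.60 and 6.41 CPM in immature and 1.57, 1.68, 4.34 and 2.13 in mature mice, with no overlap. At 2dpr it was nearly undetected, with 2, 5, 5 and 8 reads in the immature and 0, 7, 0 and 10 in the mature libraries. The 14dpr libraries held 2.56, 4.36, 3.91 and 7.86 CPM at the immature age, against 0.482, 1.68, 0.891 and 1.14 at the mature age. From 0dpr to 2dpr it fell by 2.62 ± 0.57 at the immature age (adjusted p = 0.00026) and fell by 1.81 ± 0.62 at the mature age (adjusted p = 0.0146). The mature call was lost without 0dpr replicate 1 (-1.45, adjusted p = 0.0761) or replicate 4 (-1.56, adjusted p = 0.0563). Unlike Ctsk, it was not above baseline at 14dpr at either age (-0.69 ± 0.48, adjusted p = 0.29, and -1.20 ± 0.53, adjusted p = 0.0792).

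Itgb3 alone had baseline libraries that all lay higher in mature mice, a difference that was not called (-0.66, adjusted p = 0.248, edgeR). It stood at 171, 198, 175 and 216 CPM in immature and 254, 354, 345 and 245 in mature baseline libraries, which do not overlap. It then fell from baseline to 0dpr and from 0dpr to 2dpr at both ages, to 55.5, 49.3, 53.9 and 76.2 CPM and to 64.8, 39.9, 50.2 and 32.5 CPM at 2dpr. The immature fall from 0dpr to 2dpr was lost without 0dpr replicate 2 (-0.48, adjusted p = 0.129), and its rise from 2dpr to 5dpr (0.86 and 0.79) was lost without any 1 of 5 libraries at each age (adjusted p up to 0.0861 and 0.107). At 14dpr the immature libraries (130, 225, 155 and 203 CPM) overlapped with baseline, while the mature ones (134, 107, 142 and 146) lay below it (-1.18 ± 0.24, adjusted p = 0.000229). The interaction of age with the change from baseline to 14dpr did not pass (1.09 ± 0.34, adjusted p = 0.334).

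The mean log2 level of megakaryocyte and platelet markers was below baseline at 2dpr, as Itgb3 was, and stayed there to 14dpr at both ages. Their summed level was 435.9 to 553 CPM at immature and 656 to 972 CPM at mature baseline. At 2dpr the sum was 327 to 519 CPM in immature mice, which overlaps with baseline. In mature mice it was 514 to 615 CPM, below baseline. From baseline to 14dpr 6 of the 7 markers fell at each age. Among them were Gp9 (-3.04 and -3.90), Itga2b (-2.61 and -3.28), whose protein pairs with the beta-3 chain on platelets, and Ppbp (-2.89) in immature and Gp1ba (-4.70) in mature mice. In immature mice their mean log2 level stood 2.58, 2.34 and 2.57 below baseline at 2dpr, 5dpr and 14dpr, while the mean of Itgb3 went from 58.7 to 107 and 179 CPM. Within groups the r of Itgb3 with the mean of these markers was 0.696, against 0.298 for Acp5, over 39 libraries that share tissue composition. The part of platelets and their precursors in the Itgb3 result was not tested.

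Between the ages, none of the 9 genes passed the test at any of the 5 stages. This compares with 0.585% of all genes at baseline, 0.726% at 0dpr, 0.627% at 2dpr, 0% at 5dpr and 0.00943% at 14dpr in either direction. By unadjusted p under 0.05, edgeR had 2, 2, 6, 4 and 6 of the 9 in that order of stages, where 11.7%, 10.7%, 13.3%, 5.10% and 4.57% of all genes did so. DESeq2's Wald test called Calcr at baseline (1.62, adjusted p = 0.00718), 0dpr (1.64, adjusted p = 0.03) and 14dpr (2.15, adjusted p = 0.00228) and no member at 2dpr and 5dpr. In a fit on the baseline libraries alone, Calcr (1.63, adjusted p = 0.0212) and Itgb3 (-0.67, adjusted p = 0.0396) were called.

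The values leaned to immature mice from 2dpr on. The median log2 difference of the 9 genes, immature minus mature, was -0.02 at baseline, 0.06 at 0dpr, 1.00 at 2dpr, 0.57 at 5dpr and 1.02 at 14dpr, beside -0.02 to 0.04 over all genes. All 9 differences were above 0 at 2dpr and 8 of 9 at 5dpr and at 14dpr, where 54%, 46.4% and 48.2% of all genes were. At 2dpr Acp5 was 1.07 ± 0.32 higher in immature mice (adjusted p = 0.119), Oscar 1.47 ± 0.56 (0.241), Dcstamp 1.12 ± 0.55 (0.37), Ocstamp 1.02 ± 0.47 (0.336) and Atp6v0d2 1.00 ± 0.41 (0.275). Osteoblast markers leaned the same way. The summed osteoblast markers held 4820 to 8291 CPM in immature and 1626 to 3199 in mature libraries at 2dpr, without overlap, and their mean log2 CPM was higher in immature mice at 5dpr too and stood at 7.87 against 6.78 at 14dpr, though none of the 8 was called between the ages. The summed stromal markers held 9994 to 11120 against 5376 to 7072 CPM at 2dpr, but lay apart at baseline too (4507 to 6318 against 1091 to 2254 CPM). At 14dpr their mean log2 CPM was lower in immature than in mature mice (9.25 against 9.47). The part of either in the osteoclast values was not tested. Without mature 2dpr replicate 3, the library high in Acp5 and Ctsk, both genes passed at 2dpr (1.51, adjusted p = 0.022, and 1.39, adjusted p = 0.039).

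At 14dpr the libraries of the 2 ages did not overlap for 3 of the 9 genes, each higher in immature mice (Acp5, Calcr and Dcstamp), where 2.77% of all genes lay apart in that direction. Acp5 was 1.26 ± 0.32 higher (adjusted p = 0.306), Calcr 2.14 ± 0.53 (0.258) and Dcstamp 1.02 ± 0.48 (1). At 5dpr 2 of 9 lay apart in the same direction (Calcr and Itgb3), where 4.05% of all genes did, and at 0dpr Calcr, where 2.16% did. At baseline 1 of 9, Calcr, was apart as higher and 1 of 9, Itgb3, as lower in immature mice, where 4.42% and 4.63% of all genes were apart. Calcr was 1.64 ± 0.49, 1.62 ± 0.54, 0.81 ± 0.64, 1.54 ± 0.59 and 2.14 ± 0.53 higher in immature mice through the 5 stages. Chodl, a satellite cell marker, was also higher in immature tissue at baseline (1.29, adjusted p = 0.0207) and 2dpr (1.5, adjusted p = 0.0173), while Pax7, which defines those cells, was not called at either (0.78 and 0.96). Heyl was also called at 2dpr (1.01, adjusted p = 0.0471), and no other marker of the 6 was called at any stage. At 5dpr, where Calcr was 1.54 higher, the mean log2 CPM of all 6 markers was 3.95 in immature and 4.37 in mature mice. Pax7 was not called there (-0.58). Trem2 was lower in immature tissue at baseline (-1.44, adjusted p = 0.00577), the 1 call among 11 receptors and adaptors. Calcr's within-group r with the satellite cell list was 0.321, and the part of those cells in its level was not tested.

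**Figure D3:**
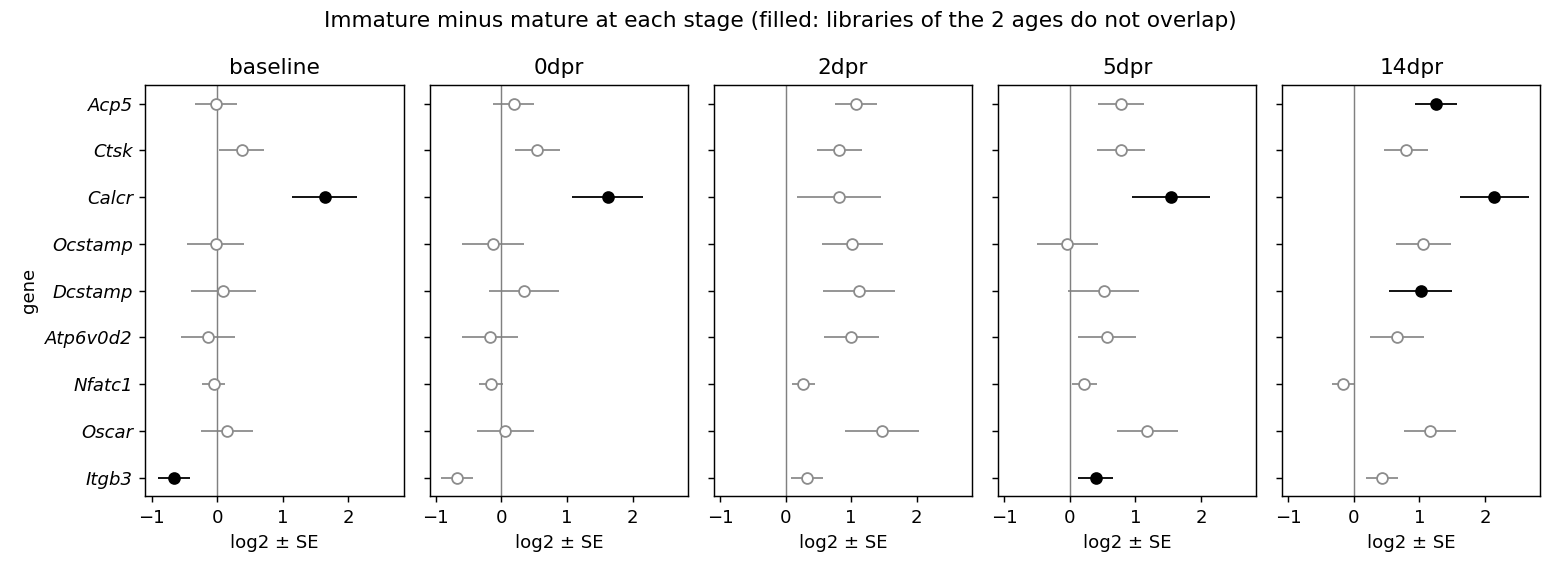
Log2 difference, immature minus mature, with its standard error for each gene at each stage; filled points mark genes whose libraries do not overlap between the ages. Calcr lies right of 0 in all 5 panels, Itgb3 left of it at baseline (-0.66) and 0dpr (-0.67), and most genes right of it from 2dpr on, although no point passed an adjusted p of 0.05.

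Changes between successive stages were compared between the ages by interaction terms, and none of the 9 genes passed in any of 4 (baseline to 14dpr and the 3 steps from 0dpr on), where 0.0472% of all genes did from baseline to 14dpr, 0.0613% from 0dpr to 2dpr and 0% in the other two. By unadjusted p under 0.05, Itgb3 was under it from 0dpr to 2dpr (1.00 ± 0.35, adjusted p = 0.279), and Acp5 and Itgb3 from baseline to 14dpr. DESeq2 called no member in these 4 interactions.

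Other genes of the pathway did not follow the 9 genes at 2dpr. Of 11 receptors and adaptors of the lineage, 8 rose and none fell from 0dpr to 2dpr at the immature age, and 9 rose and 1 fell at the mature age. Trem2 rose by 6.44 and 4.43 on the log2 scale, Csf1r by 1.93 and 2.08, and the RANK gene Tnfrsf11a by 2.74 and 2.53. Tnfrsf11a averaged 10.1, 67.2 and 36.9 CPM at 0dpr, 2dpr and 14dpr for the immature age and 11.9, 68.9 and 40.5 CPM for the mature age, and so was highest where Oscar was lowest. Siglec15, a receptor of maturing osteoclasts, moved with the effectors instead, with averages of 0.820 CPM at 2dpr and 5.43 at 14dpr for the immature age (a rise of 2.98 from 5dpr, adjusted p = 0.00201).

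Among the signals, Csf1 rose from 0dpr to 2dpr (1.95 and 1.99), as did osteoprotegerin Tnfrsf11b (0.99 and 1.41), while RANKL Tnfsf11 was not called in that step (-0.76 and -0.10). From 2dpr to 5dpr Tnfsf11 rose in immature (1.38, adjusted p = 0.035) and mature mice (1.32, adjusted p = 0.0414). Its average went from 2.23 CPM at 2dpr to 12.7 at 14dpr in immature and from 1.74 to 7.79 in mature mice, and from baseline to 14dpr it rose in immature mice (1.37, adjusted p = 0.00789) and was not called in mature mice (0.87, adjusted p = 0.0972).

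Of 10 transcription factors other than Nfatc1, 6 rose and 1 fell from 0dpr to 2dpr in immature and 8 rose in mature mice, led at both ages by Spi1 (2.44 and 2.12), which encodes PU.1, Nfkb2 (1.57 and 1.49) and Nfkb1 (0.70 at both ages). Of the repressors of osteoclast formation, Irf8 rose in that step (1.70 and 1.18), when most effector genes were at their lowest mean, and Bcl6 fell in immature mice (-0.54). From 5dpr to 14dpr neither Irf8 nor Bcl6 was called at either age.

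Of 11 genes of acid secretion and the ruffled border other than Atp6v0d2, 10 rose at the immature age, and 9 rose and 1 fell at the mature age, from 0dpr to 2dpr, led by the pump subunits Atp6v1b2 (1.34 and 1.33), Atp6v1c1 (1.47 and 1.35) and Atp6v1h (0.96 and 1.20). Atp6v0d2 therefore moved with this list in immature mice. From 5dpr to 14dpr 2 of the 11 rose in immature mice (Snx10 at 0.96 and Slc4a2 at 0.58) and none in mature mice. Of 6 matrix degrading enzymes other than Ctsk, the lysosomal cathepsins Ctsb (2.61 and 2.39) and Ctsl (2.30 and 3.16) rose from 0dpr to 2dpr, whereas from 5dpr to 14dpr 2 of 6 rose at each age, the metalloproteinases Mmp13 (2.32 and 2.15) and Mmp9 (1.73 and 1.78). None of the lysosomal cathepsins of the list was called in the late step.

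**Figure D4:**
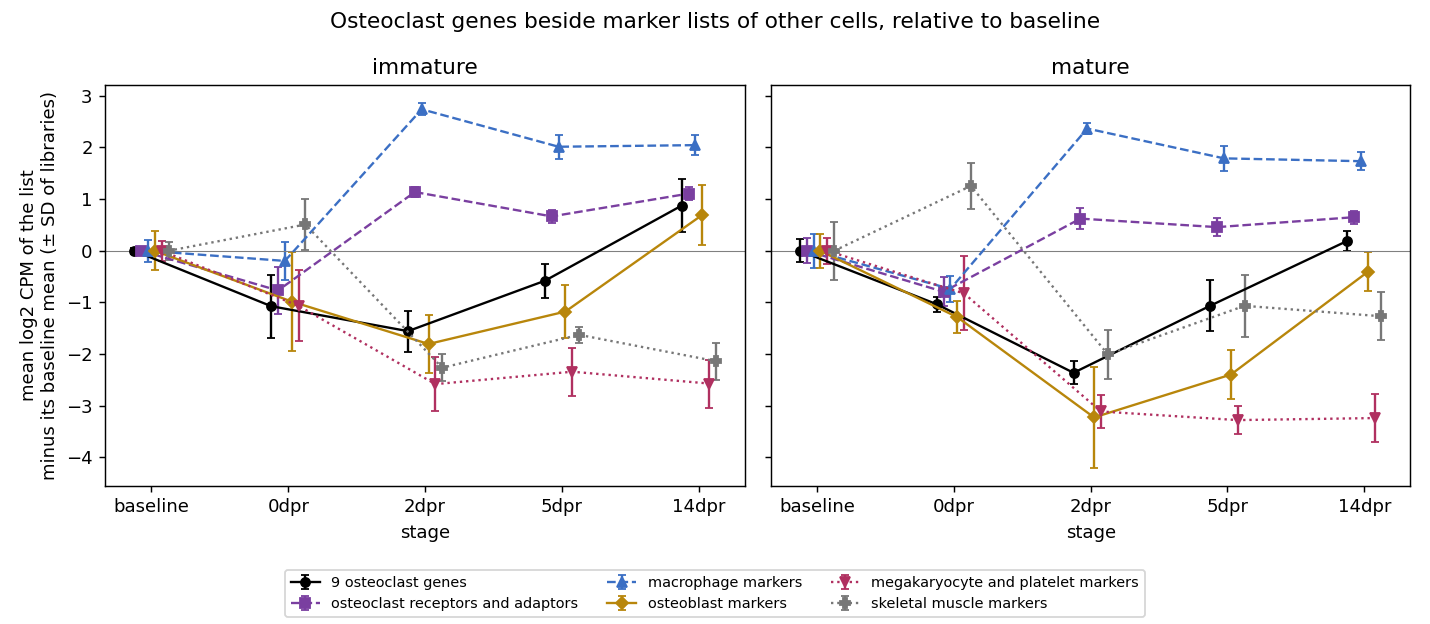
Mean log2 CPM of the 9 osteoclast genes and of 5 marker lists, minus the baseline mean of the same age, with the SD over libraries, by stage. At 2dpr the macrophage list is above its baseline at both ages while the 9 osteoclast genes are below theirs. The osteoblast list also has its low at 2dpr, further down than the osteoclast genes (-1.80 against -1.55 in immature, -3.23 against -2.36 in mature mice). At 14dpr in mature mice it stands at -0.41 against 0.19.

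Macrophage markers rose from 0dpr to 2dpr, when Acp5, Calcr, Oscar and Itgb3 fell at both ages. All 10 macrophage markers rose from 0dpr to 2dpr at both ages, led by Fcgr1 (5.59 and 5.94) and Cd68 (3.95 and 3.63). Their summed level was 990 to 1743 CPM at 0dpr, 6923 to 8572 at 2dpr and 6016 to 8571 at 14dpr for the immature age. For the mature age it was 1039 to 2184, 6675 to 8448 and 7269 to 9087 CPM. From 5dpr to 14dpr 1 of 10 macrophage markers rose in immature mice (Cd14 at 1.03) and none in mature mice, in the step where Acp5, Ctsk and Oscar rose at both ages. Over the 39 libraries r with the macrophage list ranged from -0.571 for Calcr and -0.532 for Itgb3 to 0.396 for Atp6v0d2, with -0.279 for Acp5 and -0.0141 for Ctsk.

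Osteoblast markers ran with the osteoclast genes, more closely with some than with others. From 5dpr to 14dpr 4 of 8 rose at each age, led by Dmp1 (3.70 and 3.06), Phex (3.55 and 3.62) and Alpl (1.86 and 1.97). Over the 39 libraries the mean of the 8 had an r of 0.928 with Acp5, 0.865 with Oscar and 0.821 with Ctsk. It was lowest with Atp6v0d2 (0.508), Nfatc1 (0.604) and Ocstamp (0.657). Within groups r was 0.649 for Acp5, 0.264 for Oscar and 0.562 for Ctsk, and lowest for Calcr (0.0304), Nfatc1 (0.0413) and Ocstamp (0.16). The part of tissue composition, which the libraries share, was not tested. The muscle list went from a summed 57680 to 119900 CPM at immature 0dpr to 11570 to 17130 at 2dpr, and 12 of 12 muscle markers fell in that step at each age. With the muscle level as a covariate, Oscar and Itgb3 still fell from 0dpr to 2dpr in immature mice, while the calls of Acp5 (-1.70, adjusted p = 0.0711), Calcr (-1.63, adjusted p = 0.423) and Atp6v0d2 (0.10, adjusted p = 0.961) were lost, with a larger size for Acp5 than the -0.83 without the covariate. In mature mice Acp5, Oscar and Itgb3 stayed called in that step under all 7 alternatives. The covariate there ended the calls of Calcr (-0.69, adjusted p = 0.83) and Nfatc1 (-0.63, adjusted p = 0.397). It added falls of Ctsk (-2.4, adjusted p = 0.0357) and Dcstamp (-3.69, adjusted p = 0.0447), so that 5 members were called, not the same 5 as without it. Over all genes the calls went from 9324 to 1802 in immature and from 10100 to 1664 in mature mice.

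The remaining lists moved in other ways, and none of their part in the osteoclast results was tested. Chondrocyte markers rose in 5 of 5 from baseline to 14dpr at each age, and stromal and periosteal markers in 6 of 7. T cell markers fell in 4 of 6 from 0dpr to 2dpr in mature mice and in none in immature mice. Of 6 endothelial markers, 5 rose from baseline to 14dpr at each age. No marker of any of these lists was at 0 in all libraries of a group.

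By likeness over all 39 libraries, the gene outside the list most like the mean of the 9 was Slc9b2 (r = 0.954), a sodium and proton exchanger, followed by Arsb (0.939), Fap (0.921), Mmp9 (0.917) and Agap1 (0.916), among 16091 genes with at least 1 CPM on average. Slc9b2 was also first for Ctsk (0.963) and Dcstamp (0.928) and for Acp5 (0.938) came after Mmp9 (0.943) and Arsb (0.940). The other members had other nearest genes: Mxd4 for Ocstamp (0.898), Tm4sf19 for Atp6v0d2 (0.896), Mst1r for Oscar (0.915), Matn4 for Nfatc1 (0.812), Col13a1 for Calcr (0.810) and Pde5a for Itgb3 (0.932). Itga2, an integrin chain of platelets, was among the nearest 3 for Itgb3 (0.901). These values describe libraries that share stage, composition and depth.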

How the data were processed

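Bulk RNA of rib tissue from 39 libraries was analysed. Per the labels and the study's methods, libraries were made with a stranded TruSeq kit and sequenced as read pairs on a NovaSeq. The authors mapped the reads to GRCm38 with STAR (2.5.2a) and deposited raw counts per gene for 48733 genes and for the 21204 genes that they kept after a filter whose rule is not given in the sources used here. The counts of the kept genes were all equal in both tables. Another deposited table holds signal values (CPM scaled by TMM factors), which recomputation with edgeR matched to a relative difference of 4.99e-15 at most. The submitters' processing notes also name DESeq2, edgeR and limma.

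edgeR (4.0.16, R 4.3.3) fitted the 10 groups to all 39 libraries with TMM factors and quasi-likelihood tests, without a replicate block, and p-values were adjusted over all 21204 genes. Alternatives were RLE factors, DESeq2 (1.42.0), filterByExpr, no filter, a fit to the compared libraries only, a replicate block, the mean log2 level of 12 muscle markers as a covariate, and leaving out each library. Log2 CPM used a prior count of 2. On simulated data for the comparison of ages at 14dpr (21204 genes, 200 changed) the fit recovered 67% of changes, 48% at 2-fold and 86% at 4-fold, with 7 false of 141 calls. Replicate numbers paired libraries in 1 comparison, immature against mature at 0dpr: in all 4 pairs the libraries of one number deviated together from their group means (r 0.178 to 0.296), and blocking left the 0 member calls there at 0. The 9 genes and all marker lists were chosen with earlier results of these data known. Named genes are the 9, at most 3 genes a list with the smallest adjusted p in the comparison described, genes that define a cell type, and the genes most like a member by Pearson's r. Gene positions and merged exon lengths come from the GENCODE annotation of GRCm38. Not every gene of the lists is reported here.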

Additional observations from a re-analysis of the deposited data

Results flagged for a closer look

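In mature mice at 2dpr, replicate 3 stood apart from its 3 companions for 3 of the 9 genes, as the highest or lowest of 4 libraries by a gap that exceeded the critical value of Dixon's test on log2 CPM. It held 124 CPM of Acp5 against 49.6 to 52.0 in the others, and 210 CPM of Ctsk against 66.6 to 75.9. It held 0 CPM of Ocstamp against 1.53 to 1.98. Chance alone marks about 1 in 20 groups in such a test, and 81 combinations of gene and group were tested here. All 3 come from 1 library, which also held 0 reads of Oscar and Calcr. None of the 9 genes passed the interaction of age with stage in the edgeR fit to all libraries.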

How the results depend on the processing

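No call changed direction under any alternative. Of the 42 calls among 171 combinations of gene and comparison, RLE factors, filterByExpr and DESeq2 ended 0 and added 2, 4 and 16, and no filter on low counts ended 1 (the fall of Nfatc1 from 0dpr to 2dpr in mature mice) and added 3. Calls between ages were 0 as reported. With DESeq2 they became 1 at baseline, 1 at 0dpr and 1 at 14dpr, with the compared libraries alone 2 at baseline, and with the muscle covariate 1 at 2dpr. DESeq2 gave 5 calls from 2dpr to 5dpr in immature mice in place of 3. With the compared libraries alone, calls became 0 from baseline to 0dpr and 5 from 2dpr to 5dpr in immature mice, 7, 3, 0 and 5 from baseline to 0dpr, 0dpr to 2dpr, 2dpr to 5dpr and baseline to 14dpr in mature mice, and 1 for the interaction from baseline to 14dpr (Itgb3). With the muscle covariate they became 0, 2 and 0 from baseline to 0dpr, 0dpr to 2dpr and baseline to 14dpr in immature mice, and 0 and 1 from baseline to 0dpr and baseline to 14dpr in mature mice. Calls over all genes moved too: with the compared libraries alone from 2257 to 48 from baseline to 0dpr in immature mice, from 3084 to 714 from 2dpr to 5dpr in mature mice and from 10 to 180 for the interaction from baseline to 14dpr. The cause of these changes was not tested.

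Outside the 0dpr comparison of ages, replicate numbers are shared without evidence of pairing. The replicate block changed the calls from baseline to 0dpr in immature mice from 4 to 0 and moved no other count by over 1.5 times. It also ended the calls of Itgb3 from 2dpr to 5dpr and Ocstamp from 5dpr to 14dpr in immature mice and of Nfatc1 from 5dpr to 14dpr in mature mice.

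Leaving out each library in turn gave 0 to 2 calls for age at 2dpr (2 without mature 2dpr replicate 3), and 0 to 4 from baseline to 0dpr in immature mice (0 without immature 0dpr replicate 3, and 2 without baseline replicates 2, 4 or 6 or 0dpr replicate 4). It gave 3 to 5 from 0dpr to 2dpr in immature mice (3 without 0dpr replicate 2), 1 to 6 from 2dpr to 5dpr in mature mice (1 without 5dpr replicate 1), and 1 to 4 from 5dpr to 14dpr in mature mice (1 without 5dpr replicate 4, 2 without 5dpr replicate 3). Calcr, Oscar and Ocstamp rest on 0 to 86, 0 to 257 and 0 to 303 reads a library, which limits what their lowest values can show. Intervals other than SDs and standard errors were not computed.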
